A study of Mus musculus with 8 samples.

Results

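The transcripts described here come from 8 genes whose products fill the granules and cytosol of neutrophils: Mpo, Elane, Ltf, Camp, Ngp, Lcn2, S100a8 and S100a9. They were chosen by name, with the higher level of Ngp in hindbrain than in telencephalic whole tissue already known, from a table of read counts for 23284 genes in mouse choroid plexus. All 8 were in the table, and 7 passed the filter on low counts; Elane did not. Choroid plexus is the fringe of secretory epithelium, stroma and vessels that makes cerebrospinal fluid in the brain ventricles. Tissue was taken at stage E18.5 from the telencephalic choroid plexus of the lateral ventricles and from the hindbrain choroid plexus, 2 libraries per group. In the whole-tissue groups the embryos were of strain CD1 and the entire choroid plexus was used. In the sorted groups the strain is labelled ICR (CD1), and the cells were epithelial cells purified by fluorescence-activated sorting for a red fluorescent protein, labelled Ttr::RFP+ after the transthyretin gene Ttr. The series' design text calls the replicates biological and pairs the regions within a brain. No label ties whole and sorted libraries to the same brains, and strain label, reporter and sorting cannot be told apart between them. The sources used here do not say whether embryos were pooled.

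Neutrophils are short-lived phagocytes made in the fetal liver and bone marrow. Their granule proteins are produced in sequence as the cells mature. The primary granules are filled first, in promyelocytes, with enzymes such as myeloperoxidase (Mpo) and neutrophil elastase (Elane). The secondary granules follow in myelocytes, with the iron-binding lactoferrin (Ltf), the antimicrobial cathelicidin (Camp), the cystatin-like neutrophilic granule protein (Ngp) and the siderophore-binding lipocalin 2 (Lcn2). S100a8 and S100a9 form calprotectin, a calcium- and zinc-binding complex that fills the neutrophil cytosol. Transcripts of the granule enzymes are most abundant in marrow precursors, while S100a8 and S100a9 stay abundant in circulating cells. Other cells make some of them: Lcn2 is induced in many epithelia, and S100a8 and S100a9 are made by monocytes.

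Transcription of these genes is known to depend on the myeloid factors PU.1 and C/EBP, so the promoters were searched for a motif of each. The sequences are from RefSeq on GRCm38.p6, 250 bases upstream of each start, and all 8 genes matched. The PU.1 motif was GAGGAAGT and the C/EBP motif TTGCNNAA, each on both strands, and the motifs share no positions here. A PU.1 match was in 3 of the 8 windows (Mpo, Elane and S100a8), against 2.45% of 32536 windows of the same length. A C/EBP match was in 4 of 8 (Ltf, Ngp, Lcn2 and S100a9), against 9.57% of windows. Camp held neither. The windows of the 2 primary granule genes and of 2 secondary granule genes are shown, because the known order of granule filling divides them. Each is printed 5′ to 3′ on the strand of its gene, with the motif match in capitals. The windows lie at chr11:87793534-87793783 (plus strand) for Mpo, chr10:79886062-79886311 (plus strand) for Elane, chr9:111019042-111019291 (plus strand) for Ltf and chr9:110419558-110419807 (plus strand) for Ngp.
Mpo: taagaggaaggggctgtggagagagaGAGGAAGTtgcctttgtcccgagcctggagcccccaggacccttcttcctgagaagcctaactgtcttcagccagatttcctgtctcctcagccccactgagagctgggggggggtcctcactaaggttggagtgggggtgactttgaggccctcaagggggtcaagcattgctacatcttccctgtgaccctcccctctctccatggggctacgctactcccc
Elane: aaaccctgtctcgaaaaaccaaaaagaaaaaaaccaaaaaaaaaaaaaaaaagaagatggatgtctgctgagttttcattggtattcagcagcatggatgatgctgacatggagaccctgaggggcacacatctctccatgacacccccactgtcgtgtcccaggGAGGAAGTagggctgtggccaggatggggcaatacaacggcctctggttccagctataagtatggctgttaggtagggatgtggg
Ltf: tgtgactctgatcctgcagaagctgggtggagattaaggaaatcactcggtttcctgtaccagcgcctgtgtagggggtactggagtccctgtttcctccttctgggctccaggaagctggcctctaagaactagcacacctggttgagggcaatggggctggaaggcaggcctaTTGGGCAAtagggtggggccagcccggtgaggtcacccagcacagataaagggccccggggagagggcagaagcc
Ngp: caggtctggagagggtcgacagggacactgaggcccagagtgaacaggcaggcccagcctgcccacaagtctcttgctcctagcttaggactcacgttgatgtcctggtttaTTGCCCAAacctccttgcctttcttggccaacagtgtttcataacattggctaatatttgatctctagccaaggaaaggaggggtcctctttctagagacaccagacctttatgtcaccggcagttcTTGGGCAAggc
In Mpo and Elane the capitals are the PU.1 motif, from -224 to -217 and from -85 to -78 relative to the start. In Ltf they are the C/EBP motif from -75 to -68, and in Ngp a pair of C/EBP matches from -138 to -131 and from -11 to -4. A match is a description of letters and not evidence of binding.

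Total counts lay between 8849053 and 31613434 per library, and 1 count was worth between 0.0364 and 0.105 CPM (counts-per-million values, relative to the TMM-scaled library size). Replicates differed by more than sampling noise in every group, and none was a copy of another. Because cDNA was amplified without molecular identifiers, counting intervals cover counting error only. Ttr, the epithelial marker used for sorting, was at 139400 to 187000 CPM in whole tissue and 159000 to 281800 CPM in sorted cells. The telencephalic sorted replicates differed in the granule genes, with a summed level of 17.5 CPM in replicate 1 against 5.83 CPM in replicate 2. With 2 libraries neither can be called the odd one. Fitted values that rest on them are also given without replicate 1, with ranges over all alternative settings for some genes.

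Summed over the 8 genes, granule transcripts were scarce in telencephalic whole tissue, plentiful in hindbrain whole tissue and at levels between these in sorted cells of both regions. The summed level was 2.75 and 2.62 CPM in the telencephalic whole libraries, from 45 and 25 counts. In the hindbrain whole libraries it was 72.5 and 54.6 CPM, from 1798 and 1157 counts. Sorted cells had 17.5 and 5.83 CPM in telencephalic replicates 1 and 2, and 15.4 and 9.39 CPM in hindbrain replicates 1 and 2. The group means were 2.69 ± 0.093 CPM, 63.6 ± 12.6 CPM, 11.7 ± 8.23 CPM and 12.4 ± 4.21 CPM (SD, n = 2) in the same order. Every sorted library lay above both telencephalic whole libraries and below both hindbrain whole libraries. In bulk RNA, fewer cells that hold these transcripts and less RNA per such cell cannot be told apart. Which cells held them was not tested.

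**Figure D1:**
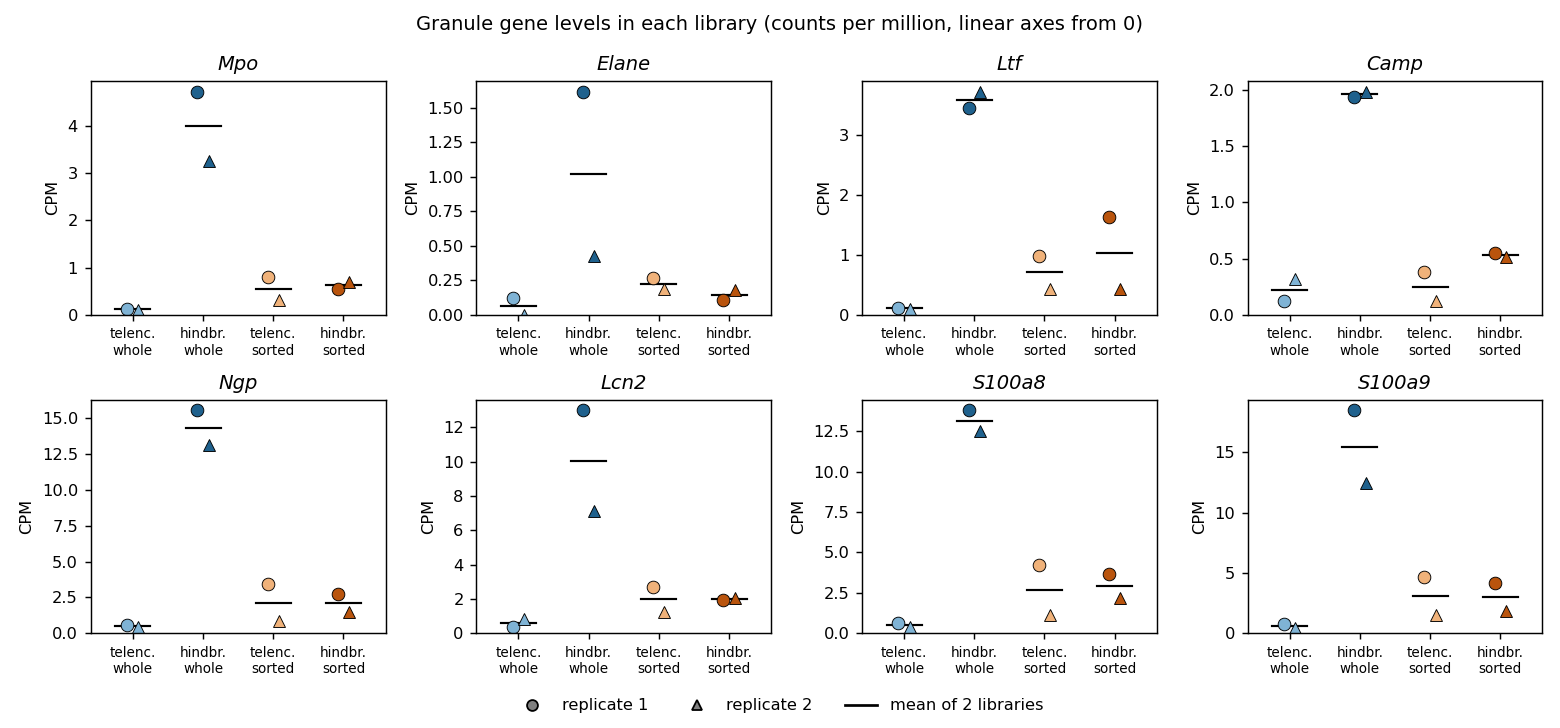
Level of each granule gene in each of the 8 libraries, in CPM on linear axes from 0 that differ between panels; circles and triangles are replicates 1 and 2, and lines are means of 2 libraries. Both hindbrain whole libraries are the highest of the 8 in every panel.

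Among the primary granule genes, Mpo makes the enzyme that turns hydrogen peroxide and chloride into hypochlorous acid. Mpo was at 0.122 and 0.105 CPM in the telencephalic whole libraries, 4.72 and 3.26 CPM in the hindbrain whole libraries, 0.794 and 0.31 CPM in the telencephalic sorted libraries and 0.546 and 0.697 CPM in the hindbrain sorted libraries. The telencephalic whole values rest on 2 counts and 1 count, against 117 and 69 in the hindbrain whole libraries. Elane, a serine protease, gave fewer reads, with 2 and 0 counts in the telencephalic whole libraries. A count of 0 in replicate 2 allows up to 0.314 CPM (3 counts). The hindbrain whole libraries had 40 and 9 Elane counts, which are 1.61 and 0.425 CPM, and sorted cells had 7 and 3 counts (telencephalic) and 3 and 5 counts (hindbrain). The hindbrain whole libraries thus differed from each other for Elane by a larger ratio than for Mpo, and lay above all other libraries for both genes.

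Of the secondary granule genes, Ngp gave the most reads in the hindbrain whole libraries. Ngp was at 0.55 and 0.419 CPM in the telencephalic whole libraries, 15.5 and 13.1 CPM in the hindbrain whole libraries, 3.4 and 0.868 CPM in the telencephalic sorted libraries and 2.73 and 1.5 CPM in the hindbrain sorted libraries. Lcn2 was at 0.367 and 0.839 CPM, 12.98 and 7.13 CPM, 2.72 and 1.24 CPM, and 1.96 and 2.06 CPM in the same order. For Lcn2 the hindbrain whole replicates were far apart, while the hindbrain sorted replicates lay close together. Ltf was at 0.122 and 0.105 CPM in the telencephalic whole libraries, 3.47 and 3.73 CPM in the hindbrain whole libraries, 0.983 and 0.434 CPM in the telencephalic sorted libraries and 1.64 and 0.44 CPM in the hindbrain sorted libraries. Camp was at 0.122 and 0.314 CPM, 1.94 and 1.98 CPM, 0.378 and 0.124 CPM, and 0.546 and 0.514 CPM in that order. Camp is the only one of the 8 whose telencephalic sorted and telencephalic whole libraries overlap, with sorted replicate 2 at 2 counts and sorted replicate 1 at 10 counts against 2 and 3 in whole tissue.

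The calprotectin subunits were high and low in the same libraries. S100a8 was at 0.612 and 0.419 CPM in the telencephalic whole libraries, 13.8 and 12.5 CPM in the hindbrain whole libraries, 4.24 and 1.12 CPM in the telencephalic sorted libraries and 3.67 and 2.17 CPM in the hindbrain sorted libraries. S100a9 was at 0.734 and 0.419 CPM, 18.47 and 12.5 CPM, 4.69 and 1.55 CPM, and 4.15 and 1.84 CPM in the same order. In each group the library with more S100a8 was also the library with more S100a9.

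Levels can be compared between genes only per length. As CPM per kilobase of exon (RPKM, with exon lengths from GENCODE M21), the order in hindbrain whole tissue was S100a9 at 29.6 ± 8.13, S100a8 at 27.1 ± 1.86, Ngp at 11.7 ± 1.39, Lcn2 at 10.99 ± 4.52, Camp at 2.58 ± 0.0442, Mpo at 1.37 ± 0.356, Ltf at 1.29 ± 0.0661 and Elane at 1.04 ± 0.854 (SD, n = 2). S100a9 and S100a8 did not differ beyond their spread, nor did Ngp and Lcn2, nor Mpo, Ltf and Elane. The gaps between S100a8 and Ngp, between Lcn2 and Camp, and between Camp and Mpo were larger than the SDs of the genes beside them. The primary granule genes were thus at the low end per length and the cytosolic pair at the high end.

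The comparison of hindbrain with telencephalic whole tissue is the one in which Ngp was already known to stand out, so its values for the granule genes are a description without a test. Pooling both libraries, hindbrain tissue held 23.8 times the summed granule level of telencephalic tissue (counting interval 18.8 to 30.6 at 95%, exact conditional method). Within brain 1 the ratio was 26.3 (19.6 to 36.2) and within brain 2 it was 20.8 (14 to 32.3). Mpo had the highest ratio, 34.9 (11.8 to 171), and Camp the lowest, 10.1 (4.19 to 32). Ltf was at 31.0 (10.4 to 152), Ngp at 28.7 (16.7 to 54.2), S100a9 at 25.4 (15.5 to 44.7), S100a8 at 24.4 (14.4 to 44.9), Lcn2 at 19.0 (11.2 to 35.1) and Elane at 13.8 (3.62 to 117). These intervals overlap, so no order among the genes can be read from them. Lcn2 varied most between the brains among the genes with at least 10 counts in telencephalic whole tissue, at 35.4 in brain 1 and 8.5 in brain 2.

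On the log2 scale of the fit, the 7 tested genes ranged from 3.26 ± 0.73 for Camp to 5.04 ± 0.70 for Mpo (SE), with Ngp at 4.83 ± 0.587. All 8 genes had both hindbrain whole libraries above both telencephalic ones, a pattern shown by 26.8% of the 15698 tested genes in that direction. Over all tested genes 5.79% were called in this contrast (3.34% higher and 2.45% lower), where called means an adjusted p below 0.05. The median over all tested genes was 0.005. Nothing is read from these counts for the granule genes, since the contrast was used to choose them.

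In the sorted epithelial cells, whose region contrast was not used in choosing the genes, no granule gene was called. By edgeR's quasi-likelihood test 0 of 7 tested genes passed, with 0 at an unadjusted p below 0.05, and DESeq2 also gave 0 on each count. The background is 15.2% of all tested genes called, 9.06% higher and 6.12% lower. The log2 difference, hindbrain minus telencephalic, was -0.08 ± 0.469 for Ngp (95% interval -1.10 to 0.94, adjusted p = 0.944). It was 0.07 ± 0.454 for S100a8 (-0.92 to 1.05, adjusted p = 0.950) and -0.11 ± 0.467 for S100a9 (-1.12 to 0.90, adjusted p = 0.918). These intervals leave room for differences of about 1 log2 unit either way.

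The other tested members gave wider or similar intervals. Lcn2 was at -0.02 ± 0.427 (-0.95 to 0.91, adjusted p = 0.984) and Mpo by 0.10 ± 0.549 (-1.09 to 1.29, adjusted p = 0.979). Ltf was at 0.50 ± 0.612 (-0.83 to 1.83, adjusted p = 0.659), and Camp at 0.96 ± 0.67 (-0.49 to 2.42, adjusted p = 0.390) had the value farthest from 0. Camp is also the only one of these 7 whose hindbrain sorted libraries both lay above both telencephalic ones, which 26.1% of tested genes did. Elane, under the filter, was at -0.63 ± 1.05 (-2.74 to 1.47) in a fit with no filter and is given without a test. Both hindbrain sorted libraries held less Elane than both telencephalic ones, as 25.8% of tested genes did in that direction. The values were 0.109 and 0.183 CPM (3 and 5 counts) against 0.265 and 0.186 CPM (7 and 3 counts). Pooled, the ratio was 0.622 with a counting interval of 0.213 to 1.75, so no order can be read from these counts.

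The sorted comparison changes with telencephalic sorted replicate 1. Pooled, hindbrain sorted cells held 0.948 times the summed granule level of telencephalic sorted cells (0.846 to 1.06). By brain the ratio was 0.879 (0.768 to 1.0) in brain 1 and 1.61 (1.27 to 2.06) in brain 2. Without telencephalic sorted replicate 1, the log2 difference was 1.28 for Ngp, 1.38 for S100a8 and 2.04 for Camp. That fit leaves 1 library in the group, so only its effect sizes are given. Over all alternative settings Ngp ran from -0.68 to 1.28 and S100a8 from -0.54 to 1.38. In telencephalic sorted replicate 1 the summed macrophage level was 45.3 CPM against 72.3 CPM in replicate 2, and the erythroid level 7.03 CPM against 10.7 CPM. The summed level of other neutrophil cytosol and surface genes was 23.4 CPM against 13.5 CPM. The cause of the higher granule level in replicate 1 was not tested.

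**Figure D2:**
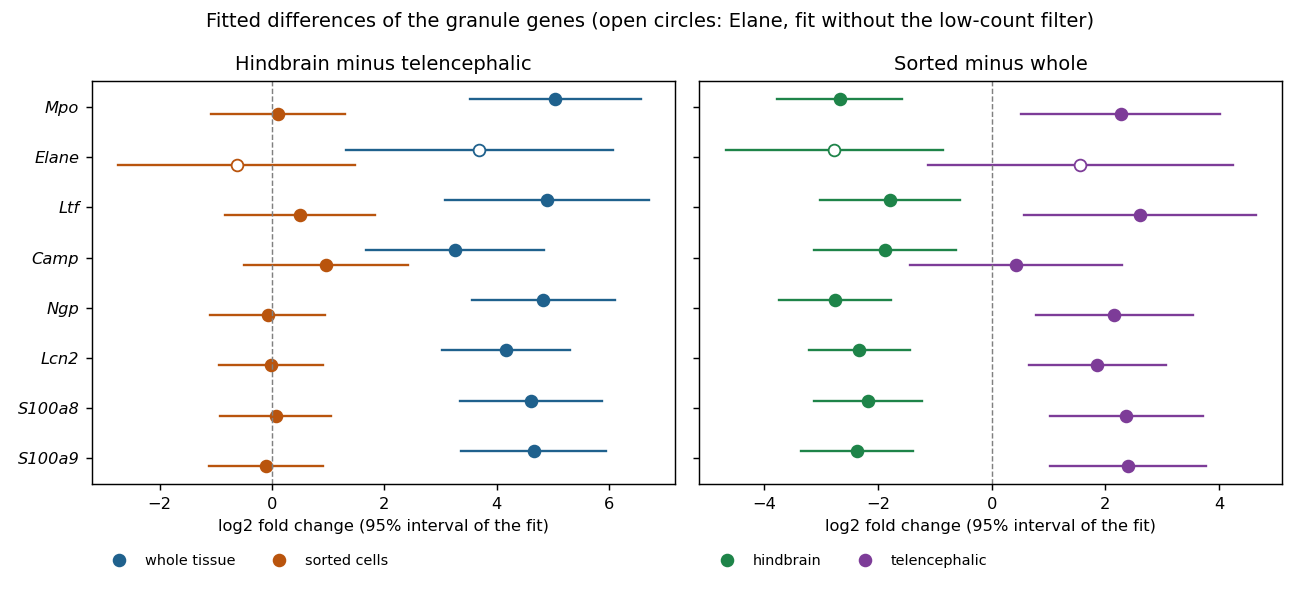
Fitted log2 differences of each granule gene with the 95% interval of the fit, for region in whole tissue and in sorted cells (left) and for sorted minus whole in each region (right); the values for Elane, with open circles, are from the fit without the low-count filter. In whole tissue the 7 filtered genes lie between 3.26 and 5.04, while in sorted cells they lie between -0.11 and 0.96 with every interval covering 0.

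Granule transcripts were lower in sorted cells than in whole tissue in the hindbrain, and higher in the telencephalic choroid plexus. These comparisons share the whole-tissue libraries that chose the genes, so they are described without a test. In the hindbrain the summed level was 5.19 times higher in whole tissue than in sorted cells (4.77 to 5.65). All 8 genes had both sorted libraries below both whole libraries there, against 29.9% of tested genes, of which 11.9% were called lower, 10.2% higher and 22.1% in all. The fitted differences, sorted minus whole, ran from -1.79 ± 0.568 for Ltf to -2.76 ± 0.453 for Ngp among the 7 filtered genes. The Ltf value was -3.01 without hindbrain sorted replicate 1 and -1.13 without replicate 2. In the telencephalic choroid plexus the sorted cells held 4.83 times the summed level of whole tissue (3.76 to 6.29). Sorted replicate 1 alone was at 6.46 times the level of the whole libraries (5.02 to 8.43) and sorted replicate 2 alone at 2.16 times (1.57 to 2.98). There the fitted differences ran from 0.42 ± 0.856 for Camp to 2.61 ± 0.938 for Ltf, with Ngp at 2.15 ± 0.636, beside 9.88% of tested genes called higher, 12.5% lower and 22.4% in all. For 7 of the 8 genes, all but Camp, both telencephalic sorted libraries lay above both whole ones, as 33.7% of tested genes did. Without telencephalic sorted replicate 1 the fitted differences were smaller: 0.79 for Ngp, 1.05 for S100a8, 1.15 for Lcn2, 1.34 for S100a9, 1.38 for Mpo and 1.85 for Ltf, and -0.66 for Camp, whose sign changed. They also moved upward, since over all alternative settings Ngp ran from 0.79 to 2.76 and S100a8 from 1.05 to 2.97. The telencephalic whole values of Ltf and Mpo rest on 3 counts each, so their ratios, 6.69 (2.1 to 34.1) and 5.27 (1.62 to 27.2), have wide counting intervals. The interaction, the region effect in sorted cells minus that in whole tissue, ran from -2.30 for Camp to -4.94 for Mpo. Without telencephalic sorted replicate 1 it ran from -1.22 for Camp to -4.05 for Mpo, with Ngp at -3.55 in place of -4.91 and S100a8 at -3.22 in place of -4.54. Over all alternative settings the interaction ran from -5.51 to -3.55 for Ngp and from -5.14 to -3.22 for S100a8. In that contrast 0.242% of tested genes were called lower, 1.1% higher and 1.34% in all, 211 genes, or 337 with the brain as a block.

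The 4 leading genes of the granule counts, S100a9, S100a8, Ngp and Lcn2, were the same in every group, whatever the amount. S100a9 was 22.9% of the summed counts of the telencephalic whole libraries, 24.4% of the hindbrain whole, 26.8% of the telencephalic sorted and 24.2% of the hindbrain sorted libraries. Ngp was 18.6%, 22.4%, 18.7% and 17.1% in that order. For Ngp the Wilson intervals were 21.0% to 24.0% in hindbrain whole tissue and 14.5% to 20.1% in hindbrain sorted cells. Ltf was the reverse case, at 5.58% in hindbrain whole tissue (4.81% to 6.47%) and 8.41% in hindbrain sorted cells (6.55% to 10.7%). The Ltf share in sorted cells comes mainly from hindbrain sorted replicate 1, with 45 counts against 12. The Wilson intervals pool both libraries of a group and leave out the spread between them. The high level of Ngp in hindbrain whole tissue was known beforehand, so the shares are a description without a test. The primary granule gene Mpo was 4.29%, 6.29%, 4.68% and 5.01% of the summed counts.

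**Figure D3:**
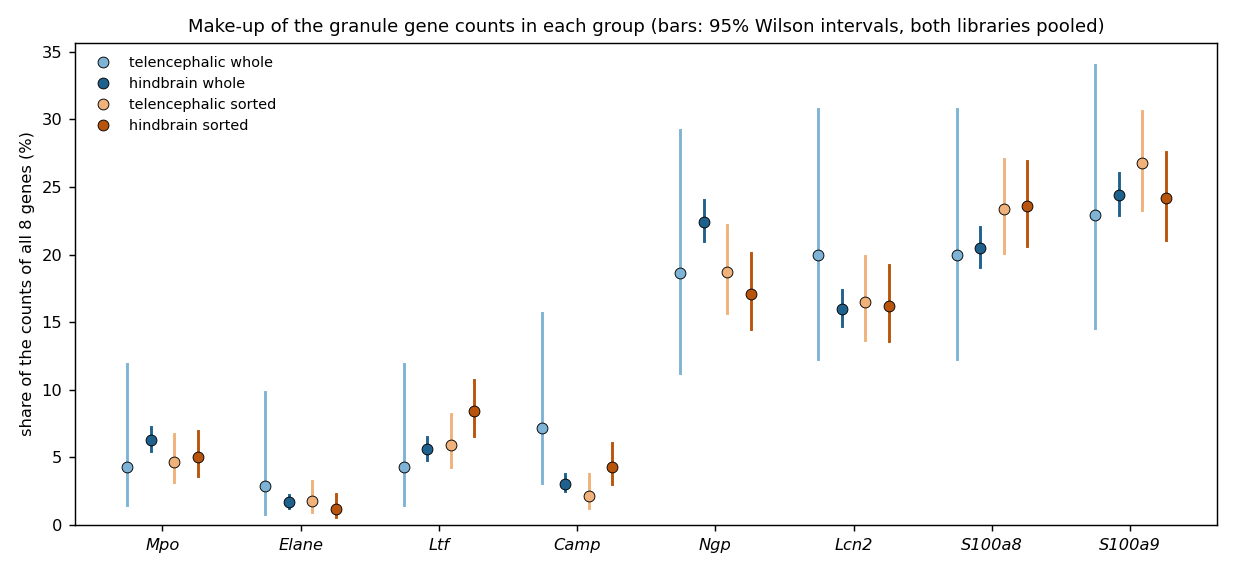
Share of each gene in the summed counts of the 8 granule genes, in percent, for the 4 groups with both libraries pooled; bars are 95% Wilson intervals, which cover counting error only. S100a9, S100a8, Ngp and Lcn2 lead in every group, and the widest intervals belong to telencephalic whole tissue with 70 counts.

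Other genes of neutrophils were read from lists that do not hold the 8. These lists too were chosen with earlier results of these data known, so their tests are not independent support for the granule genes. The table held 29 such genes, of which 22 were tested, and in whole tissue 8 were called higher in hindbrain, 0 lower and 14 not called. Of the 22, 4 reached the cutoff of the low-count filter in hindbrain whole libraries alone. Among these are 3 of the 8 calls (Mmp8, Retnlg and BC117090), genes which could enter the test only by being high there. Of the other 18 genes, 5 were called higher. Those 18 include Fcnb, Itgb2l and Fpr1, which reached the cutoff in only 1 library outside hindbrain whole tissue. They too needed the hindbrain whole libraries to pass the filter, and none of them was called higher there. The called count depends on single libraries: without telencephalic whole replicate 1 it was 3, without telencephalic whole replicate 2 it was 4, without hindbrain whole replicate 1 it was 4 and without hindbrain whole replicate 2 it was 5. In sorted cells 1 of the 22 was called higher and 0 lower, beside 9.06% higher and 6.12% lower over all tested genes.

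Among other secondary and tertiary granule genes, 2 of 9 were called higher in hindbrain whole tissue, Olfm4 and Mmp8, beside 3.34% of all tested genes. Mmp8, the neutrophil collagenase and a gene past the filter only there, was at 0.183 and 0.419 CPM in telencephalic and 3.59 and 2.6 CPM in hindbrain whole tissue, from 3 and 4 counts against 89 and 55. Olfm4, a glycoprotein of a subset of neutrophils, differed by 2.91 ± 0.632 (adjusted p = 0.0155). In sorted cells the call in this list was Adam8, a membrane metalloproteinase also made by macrophages, at 1.35 ± 0.409 (adjusted p = 0.0433). Over all tested genes 9.06% were called higher in sorted cells. The primary granule list had 4 genes in the table and 1 past the filter, and none was called in either region contrast. That gene, Prtn3 (proteinase 3), ran the other way without passing the test, at 1.28 and 1.68 CPM in telencephalic and 0.887 and 0.614 CPM in hindbrain whole tissue, a log2 difference of -0.95 ± 0.59 (adjusted p = 0.489). Ctsg, cathepsin G, had 0 and 0 counts in telencephalic and 4 and 1 in hindbrain whole tissue.

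Of the neutrophil cytosol and surface genes, 6 of 12 tested were called higher in hindbrain whole tissue, 2 of them (Retnlg and BC117090) past the filter only there. In sorted cells 0 of 12 were called. Over all tested genes 3.34% were called higher in whole tissue, and 15.2% were called in sorted cells. Retnlg, a resistin-like secreted protein, had 3 and 2 counts in telencephalic and 49 and 27 in hindbrain whole tissue. The other 5 are stefins or stefin-like genes, cysteine protease inhibitors with near-identical copies, so the split of reads among them is uncertain. Stfa2l1 was at 0.489 and 1.05 CPM in telencephalic and 10.9 and 9.68 CPM in hindbrain whole tissue, a log2 difference of 3.83 ± 0.451 (adjusted p = 0.000247). Stfa2 differed by 4.22 ± 0.511 (adjusted p = 0.000297) and BC100530 by 4.53 ± 0.677 (adjusted p = 0.00134). Stfa3 had 202 counts against 1, a ratio of 114 (20.2 to 4510), and BC117090 had 41 against 0, at least 7.69-fold higher with a floor of 3 counts over the group.

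The surface receptors on the same list did not pass. Csf3r, the receptor for granulocyte colony-stimulating factor, differed by 0.82 ± 0.442 in whole tissue (adjusted p = 0.405). Cxcr2, a chemokine receptor of neutrophils, was at 4.89 and 6.5 CPM in telencephalic and 6.61 and 6.61 CPM in hindbrain whole tissue (adjusted p = 0.76). Its level was higher in telencephalic sorted cells, at 11.99 and 8.5 CPM, than in telencephalic whole tissue (log2 0.87 ± 0.259, adjusted p = 0.0304). Ly6g was not matched by symbol.

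In hindbrain 7 of the 22 other neutrophil genes were called lower in sorted cells, 2 of them (Mmp8 and Retnlg) past the filter only through the whole libraries. The 1 called higher, Stfa1, passed the filter only through the hindbrain sorted libraries, so it could enter the test only by being high there. Over all tested genes 11.9% were called lower and 10.2% higher in this contrast. In the telencephalic choroid plexus 2 of 22 rose, Stfa3 and Cxcr2, and 0 fell, beside 9.88% called higher and 12.5% lower over all tested genes. The interaction called 4 of 22 lower, all stefins or stefin-like genes, beside 0.242% of all tested genes.

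The regulators of granule genes showed a different pattern. Cebpe, the factor for secondary granule genes, had 0 to 2 counts in every library, and Gfi1, a repressor needed for neutrophil maturation, had 0 to 5, and neither was tested. The other 2, both shared with macrophages, were not called in whole tissue. Both were called higher in hindbrain sorted cells, beside 9.06% of all tested genes. Sfpi1, which encodes PU.1, differed there by 2.18 ± 0.349 (adjusted p = 0.00111) and Cebpa by 1.29 ± 0.347 (adjusted p = 0.0255).

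Receptors and inhibitors of the granule proteins were read from a list of 6 tested genes. In whole tissue 1 was higher and 1 lower in hindbrain, and in sorted cells 2 were higher and 1 lower. Serpinb1a, an intracellular inhibitor of neutrophil elastase, was higher in hindbrain in both preparations, by 2.88 ± 0.455 (adjusted p = 0.00198) in whole tissue and 4.31 ± 0.469 (adjusted p = 5.66e-05) in sorted cells. Tlr4, a receptor for S100a8 and S100a9, was called in sorted cells at 1.95 ± 0.386 (adjusted p = 0.00464). Lrp1, a lactoferrin receptor, fell by 0.62 ± 0.111 in whole tissue (adjusted p = 0.00471) and by 0.39 ± 0.111 in sorted cells (adjusted p = 0.0333). Slc22a17, a lipocalin 2 receptor, was not called in a region contrast.

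By likeness of log2 CPM over the 8 libraries, the genes most like Ngp outside the 8 members were BC100530 (Pearson r = 0.985), BC117090 (0.985), Map3k9 (0.958), Cthrc1 (0.951), Stfa2 (0.947), Stfa2l1 (0.946), Stfa3 (0.938) and Prg2 (0.924). Map3k9, a kinase, shows the pattern at a higher level with a smaller range, from 49.8 CPM in telencephalic whole replicate 2 to 94.3 CPM in hindbrain whole replicate 2. Among the members the values were 0.992 for S100a8, 0.989 for S100a9, 0.981 for Mpo, 0.970 for Ltf, 0.956 for Lcn2 and 0.911 for Camp. The points share libraries and group structure, so these values are descriptions.

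Markers of other blood cells moved with the granule genes in part. Prg2, the eosinophil major basic protein, had 0 and 1 counts in telencephalic whole tissue and 67 and 79 in hindbrain whole tissue, a ratio of 82.2 (14.5 to 3270). It passed the filter only through hindbrain whole tissue, so its call is not used. The other tested eosinophil gene, Epx, was not called (adjusted p = 0.874). Prg2 alone was at 2.7 and 3.73 CPM in the hindbrain whole libraries and made up most of the summed eosinophil level there. That summed level, which is not a separate result from Prg2, was 0.122 to 0.419 CPM in telencephalic and 3.19 to 5.43 CPM in hindbrain whole tissue. For erythroid genes the summed level was 27.7 to 34.4 CPM against 60.3 to 66.7 CPM. In whole tissue 1 of 5 tested erythroid genes was called higher (Alas2, heme synthesis, 0.80 ± 0.198, adjusted p = 0.0322), beside 3.34% of all tested genes. The erythroid gene Slc4a1 was at 1.57 (adjusted p = 0.15). Of the 9 erythroid genes in the table, 4, the adult globins, were at 0 in every library. The reason for these zeros was not tested, and they are not read as a measure of blood content. In sorted cells the erythroid level was 7.03 to 10.7 CPM in telencephalic and 9.64 to 11.9 CPM in hindbrain libraries. Whether blood left in the tissue contributed to the granule transcripts was not tested.

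Macrophage markers followed another course. Their summed level was 187.5 to 210.6 CPM in telencephalic and 265.3 to 266.0 CPM in hindbrain whole tissue. There 1 of 15 was called higher (Csf1r, 0.62, adjusted p = 0.0457), beside 3.34% of all tested genes. Mrc1 was at 0.06 (adjusted p = 0.965). In sorted cells the summed macrophage level was 45.3 to 72.3 CPM in telencephalic and 223.6 to 264.5 CPM in hindbrain libraries, with a median log2 difference of 2.19. All 15 of 15 were called higher in hindbrain, beside 9.06% of all tested genes. Without telencephalic sorted replicate 1 the count was 10. The list holds Lyz2 and Cybb, which neutrophils also express. The interaction called 4 of 15 higher, beside 1.1% of all tested genes. The part of macrophages in the granule values was not tested.

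The remaining lists were monocyte, mast cell and basophil, platelet, lymphoid, endothelial, mesenchymal and epithelial markers. Ccr2, of monocytes, had 20 and 10 counts in telencephalic and 91 and 73 in hindbrain whole tissue and 0 to 2 in every sorted library (adjusted p = 0.134 for region in whole tissue). F13a1, the other monocyte gene of high count, was higher in hindbrain sorted cells (2.13, adjusted p = 0.00115). Of mast cell and basophil genes Mcpt8, Prss34 and Fcer1a were at 0 in every library, and neither Cpa3 nor Hdc was called in a region contrast (0 of 2 tested). Some mast cell genes under the filter were higher in hindbrain whole tissue by counts: Cma1 had 30 against 3 (ratio 5.63, 1.75 to 28.8), Tpsab1 19 against 1 (10.7, 1.7 to 444) and Tpsb2 17 against 1 (9.57, 1.5 to 400). Mcpt4, also under the filter, did not follow, with 6 and 0 counts in hindbrain and 1 and 3 in telencephalic whole tissue. Without Hdc, which is also expressed outside mast cells, the list summed to 0.367 and 1.26 CPM in telencephalic and 2.98 and 3.12 CPM in hindbrain whole tissue. For platelets 0 of 4 were called in whole tissue and 1 in sorted cells (Pf4, 1.58, adjusted p = 0.00246), with Itga2b at -0.54 there (adjusted p = 0.252). Lymphoid genes were at 0.434 to 2.17 CPM in sum, and 0 of 2 tested, Cd3d and Cd79b, were called for region. Endothelial markers were at 554.4 to 585.9 CPM in whole tissue and 104.9 to 125.5 CPM in sorted cells, and all 6 of 6 fell on sorting in both regions, Kdr by 1.31 and Cdh5 by 2.46 in hindbrain. For mesenchymal genes 3 of 6 were called higher in hindbrain whole tissue and 5 of 6 in sorted cells, with Col1a2 at 1.06 (adjusted p = 0.00102) and Pdgfra at 0.00 (adjusted p = 0.995) in sorted cells. Epithelial markers showed 1 of 6 lower in hindbrain whole tissue and 2 of 6 in sorted cells, including Ttr at -0.54 (adjusted p = 0.0118) but not Clic6 (-0.22, adjusted p = 0.259).

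**Figure D4:**
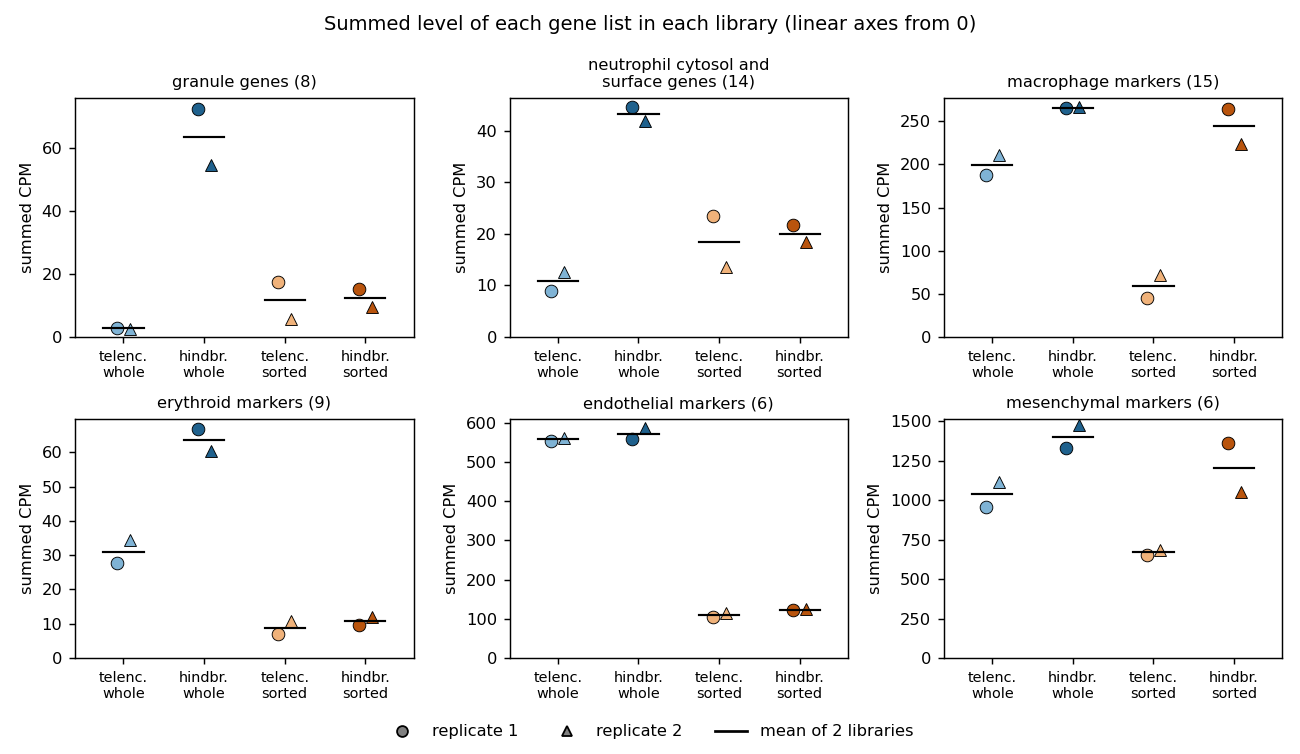
Summed CPM of 6 gene lists in each of the 8 libraries, on linear axes from 0 that differ between panels; circles and triangles are replicates 1 and 2 and lines are means of 2 libraries. Granule genes are highest in hindbrain whole tissue at 54.6 to 72.5 CPM, macrophage markers are lowest in telencephalic sorted cells at 45.3 to 72.3 CPM, and endothelial markers fall from at least 554.4 CPM in whole tissue to at most 125.5 CPM in sorted cells.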

How the data were processed

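RNA from 8 libraries (2 per group) was measured by RNA-seq. Per the labels' protocols it was isolated with the RNeasy Micro kit, converted to cDNA and pre-amplified with NuGEN Ovation V2 and made into TruSeq v2 libraries, which mark no strand. Build mm9, HTSeq, DESeq 1, Bowtie2 2.0.5, TopHat2 2.0.4 and CASAVA 1.8.2 are listed in the submitters' processing notes. The sources used here give neither annotation nor strand setting. The authors deposited unnormalized whole-number counts per gene symbol, with 8849053 to 31613434 counts per library.

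For the tests, edgeR 4.0.16 (R 4.3.3) was used: filterByExpr (minimum count 10, minimum total 15) kept 15698 of 23284 genes, with TMM scaling, 4 group means over all 8 libraries and quasi-likelihood F tests. Benjamini-Hochberg adjusted p covers all tested genes, and below 0.05 is called. CPM, RPKM (exon lengths of GENCODE M21), exact conditional and Wilson intervals were computed from the counts. The code was tested on simulated counts. Regions are paired by brain per the design text (correlation of deviations 0.193 in whole tissue and 0.145 in sorted cells over 15698 genes).

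The members and lists were chosen with earlier results of these data known. Named genes are the 8 members, listed genes called in a region contrast, the 2 with most counts in lists where fewer than 2 were called and in other cell type lists, and the 8 filtered genes most correlated with Ngp. Csf3r, Cxcr2, Stfa1, Slc22a17, Cebpe, Gfi1, Cma1, Tpsab1, Tpsb2, Mcpt4, Mcpt8, Prss34 and Fcer1a fall outside this rule and were chosen after their values were seen. Alternatives were DESeq2 1.42.0, its size factors, library totals, no filter, a brain block, the 4 libraries of a comparison alone and leaving out each library.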

Additional observations from a re-analysis of the deposited data

Results flagged for a closer look

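Region effects differed between preparations by the interaction test of edgeR (adjusted p below 0.05) for 11 listed genes. Negative values, a smaller hindbrain excess in sorted cells than in whole tissue, were found for the stefin-type genes Stfa2 (-3.68, adjusted p = 0.0219), Stfa3 (-6.81, adjusted p = 0.0224), Stfa2l1 (-3.24, adjusted p = 0.0199) and BC100530 (-4.20, adjusted p = 0.0413), on the log2 scale. The fitted value of Stfa3 rests on 1 count in telencephalic whole tissue.

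Positive values, a larger hindbrain excess in sorted cells, were found for the macrophage and monocyte genes C1qb (1.97, adjusted p = 0.00216), C1qc (2.28, adjusted p = 0.00324), Lyz2 (1.78, adjusted p = 0.0209), Fcer1g (1.77, adjusted p = 0.0345) and F13a1 (2.21, adjusted p = 0.037). The endothelial gene Cdh5 (1.61, adjusted p = 0.00179) and the collagen gene Col3a1 (1.47, adjusted p = 0.0199) were also positive.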

How the results depend on the processing

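No granule gene was called in the sorted region contrast under any of the alternatives run (98 values), but 15 of the 98 changed sign. Where a sorted library was left out its group kept 1 library, so the lack of calls there says little. With library totals Lcn2 was at 0.19, Ngp at 0.15 and S100a9 at 0.12, and with the replicate block Lcn2 was at 0.0464 and Ngp at 0.0799. Leaving out 1 library moved Mpo from -0.35 to 0.99, Ltf from -0.75 to 1.25, Ngp from -0.68 to 1.28, Lcn2 from -0.44 to 0.69, Camp from 0.48 to 2.04, S100a8 from -0.54 to 1.38 and S100a9 from -0.83 to 0.95. The whole-tissue values of the 7 filtered members stayed positive throughout, from 2.62 for Camp to 5.28 for Mpo. Camp, sorted minus whole in telencephalic tissue, ran from -0.66 to 1.10.

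Counts of called genes over the whole table moved more. The interaction, 211 genes, gave 441 with no filter, 325 with DESeq2 and 337 with the replicate block. With only the 4 libraries of the comparison the sorted contrast gave 1491 in place of 2383 and the whole-tissue contrast 1581 in place of 909. Leaving out 1 library gave 1048 to 3218 (sorted region), 322 to 1346 (whole region), 1722 to 3836 (sorted minus whole, hindbrain), 1536 to 4518 (sorted minus whole, telencephalic) and 58 to 456 (interaction). The other neutrophil genes called in whole tissue ranged from 3 to 8. The block changed no call of a member. Library totals moved the median of all genes to 0.20 (sorted region), -0.19 (sorted minus whole, hindbrain) and -0.30 (sorted minus whole, telencephalic), and the higher share of calls to 83.5%, 20.1% and 10.5% from 59.7%, 46.3% and 44.1%, and to 70.7% from 57.6% in whole tissue. The cause of these moves was not tested. The counts of called listed genes under these settings were added after seeing the data. Depth limits telencephalic whole tissue, where Mpo, Elane, Ltf and Camp had 0 to 3 counts per library.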
